A study of Mus musculus with 2 samples.

Results

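The Slc35f genes were followed as 5 members of 1 transporter family across both DLX2 CUT&Tag peak lists of the maxillary process. They are *Slc35f1*, *Slc35f2*, *Slc35f3*, *Slc35f4* and *Slc35f5*, out of 21761 protein-coding genes placed on the numbered chromosomes, X and Y. A sixth gene of the name, *Slc35f6*, was not among the members and had 1 shared region in its window, with 6 peaks there in replicate 1 and 11 in replicate 2. In what follows, the family and the relatives of *Slc35f3* mean the 5 members. The family was chosen by the number of regions that both replicates shared at *Slc35f3*, which stood among the highest of any gene, so that number is a description here and carries no test. The peaks described are those inside the GRCm38 RefSeq extent of a member or within 100 kb of it. They numbered 26 of the 28061 peaks of replicate 1 and 55 of the 62093 peaks of replicate 2, and they formed 20 of the 10921 shared regions, which are stretches covered by a peak of each replicate. The lists include weak peaks, down to a −log10 q of 1.005 in replicate 1 and 1.002 in replicate 2. The paper reports fewer peaks per replicate and fewer in common, so the regions here are not its set of DLX2 sites. With a −log10 q of at least 5, *Slc35f3* kept 4 shared regions.

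CUT&Tag uses an antibody to bring a transposase to a protein on chromatin, so that the DNA beside that protein is cut, tagged and sequenced. Both libraries came from fresh maxillary process cells of wildtype C57BL/6 embryos at E12.5, with an antibody to DLX2, and together they form 1 group of 2 replicates. No library with a control antibody, no input and no other genotype was used here, so that a bound site and a stretch that is easily cut in any library cannot be told apart. The sources do not state whether the replicates came from separate litters or whether embryos were pooled, so the spread between them may be technical.

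DLX2 is a homeodomain transcription factor of the branchial arches and the forebrain, and the maxillary process is the facial outgrowth that gives rise to most of the upper jaw. The SLC35 proteins are membrane carriers with many transmembrane helices, and the best known of them bring nucleotide sugars into the Golgi apparatus and the endoplasmic reticulum for glycosylation. The F branch is named for sequence likeness, and its cargo is less well known. *Slc35f3* encodes a protein that has been linked to thiamine transport, and SLC35F2 is known for taking the cytotoxic compound sepantronium bromide into cells. The peaks are places of enriched signal, and no expression value of these genes was used here.

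*Slc35f3* held nearly all of the shared regions of the family. Its extent covers 258 kb of chr8:126138398-126395987 on the plus strand, and its window held 23 peaks in replicate 1 and 31 in replicate 2, a mean of 27.0 ± 5.66 (SD, n = 2). These peaks formed 18 shared regions, 16 inside the gene, 2 upstream of it and 0 downstream. *Slc35f2* had the other 2 shared regions, and *Slc35f1*, *Slc35f4* and *Slc35f5* had 0. The order by number of peaks was the same at its head in both replicates, with *Slc35f3* first, whereas the 4 relatives lay between 0 and 2 peaks in replicate 1 and between 4 and 9 in replicate 2 and changed places.

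**Figure D1:**
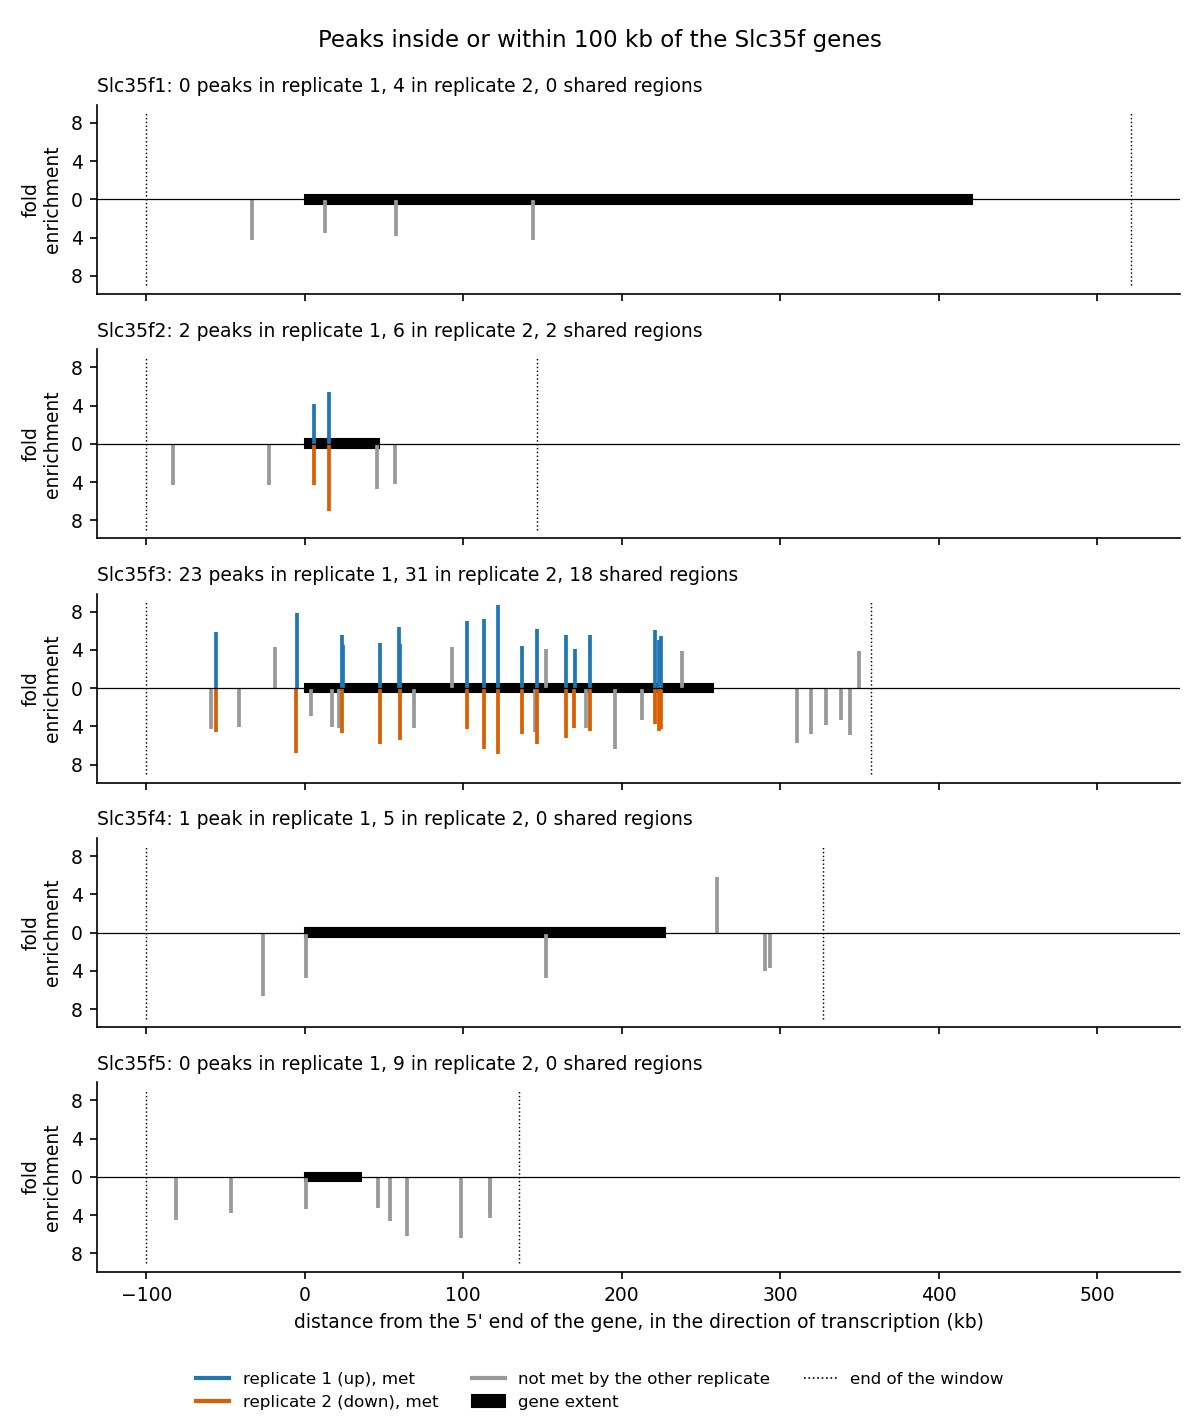
Each panel shows 1 gene of the family, with the distance from the 5′ end of its extent in kb on the horizontal axis and the fold enrichment of each peak on the vertical axis, replicate 1 upwards and replicate 2 downwards. Coloured lines are peaks met by a peak of the other replicate and grey lines are peaks that were not; *Slc35f3* has 18 shared regions, *Slc35f2* has 2 and the other panels hold none.

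The relatives were not short of sequence. *Slc35f1*, on chr10:52690501-53111622, has an extent of 421 kb, longer than that of *Slc35f3*, and its window held 0 peaks in replicate 1 and 4 in replicate 2. *Slc35f4*, on chr14:49298519-49525837 on the minus strand, covers 227 kb and had 1 peak in replicate 1 and 5 in replicate 2. Both long relatives therefore had a window close to or above that of *Slc35f3* in size and few peaks in either library. *Slc35f2*, on chr9:53771433-53818161, covers 46.7 kb and had 2 peaks in replicate 1 and 6 in replicate 2. *Slc35f5*, on chr1:125560528-125595834, covers 35.3 kb and had 0 peaks in replicate 1 and 9 in replicate 2, only 1 of them inside the gene. Per Mb of window, the shared regions came to 39.3 at *Slc35f3* and 8.11 at *Slc35f2*.

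The same numbers over all protein-coding genes give the scale. Of all coding genes, 60.3% had a shared region inside or within 100 kb, against 2 of the 5 members, and 14.6% had one inside the gene, again against 2 of 5. A replicate 1 peak lay in the window of 83.1% of coding genes and of 3 of the 5 members, and a replicate 2 peak in the window of 91.7% and of all 5. The median coding gene had 1 shared region, 3 peaks in replicate 1 and 8 in replicate 2. *Slc35f3* ranked 4 by shared regions and 32 by shared regions per Mb of window, and 0.0276% of coding genes had as many or more. That rank is what brought the family into view. *Slc35f1*, *Slc35f4* and *Slc35f5* belonged to the 39.7% of coding genes with 0 shared regions.

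**Figure D2:**
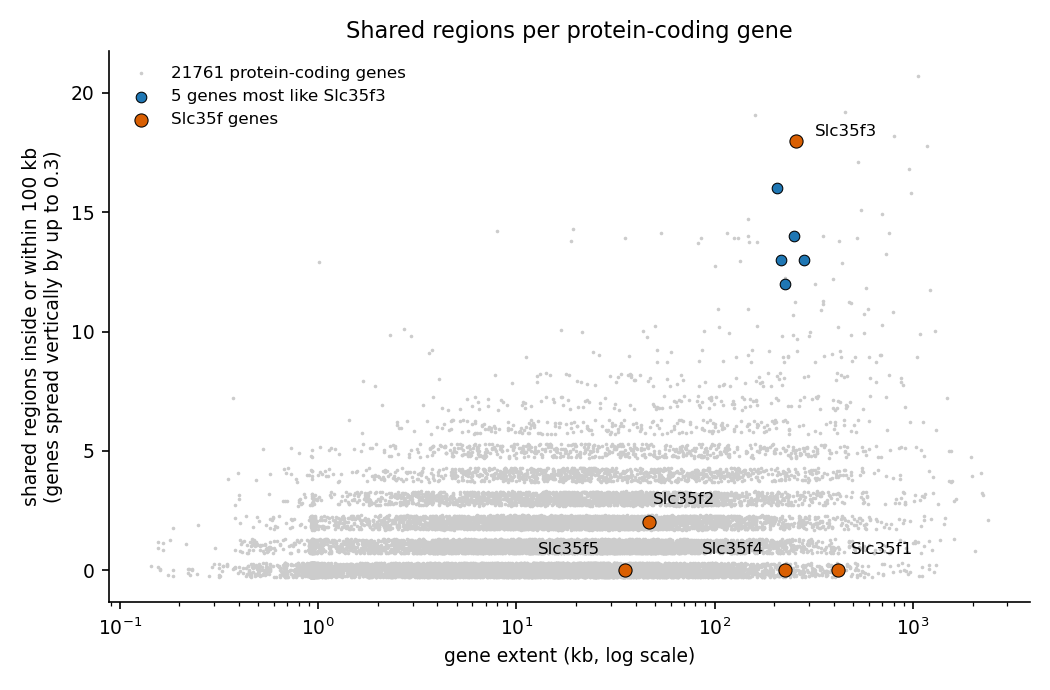
Each grey point is a protein-coding gene, with its extent in kb on a log scale and the number of shared regions inside or within 100 kb of it; points are spread vertically by up to 0.3 so that they can be told apart. *Slc35f3*, with 18, lies far above its relatives at 0 to 2, and the blue points mark the 5 genes most like it.

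Coding genes close to *Slc35f3* in extent, from 206 to 322 kb, numbered 456 and had a median of 2 shared regions, with quartiles of 1 and 4. *Slc35f3* had the highest number among them, so that 0.219% reached it, namely the gene itself. The 5 whose number was closest to it were *Myo18b* with 16 shared regions, *Kcnj6* with 14, *Ablim1* and *Disc1* with 13 each and *Erg* with 12. Closeness in the number of shared regions over the 2 libraries was the measure of likeness. *Kcnj6* was the most similar in layout, with 13 of its 14 regions inside the gene, whereas *Myo18b* had 6 of 16 inside. The median of the lower fold, meaning the fold in the replicate where a region was weaker, was between 3.98 and 4.71 at these 5 genes.

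The shared regions of *Slc35f3* were spread along the gene rather than gathered at its start. From the 5′ end, 4 equal parts of the gene held 5, 3, 5 and 3 of them, and the last lay 32.7 kb before the 3′ end. From the first to the last, the 18 regions spanned 281 kb. Neighbouring centres lay a median of 10.8 kb apart, with quartiles of 5.13 and 23.5 kb and a range of 0.204 to 50.7 kb. Of the 17 gaps, 2 were under 1 kb, 2 were of 1 to 5 kb, 8 were of 5 to 20 kb and 5 were of 20 kb or more. Both gaps under 1 kb arose where 1 wide peak of replicate 2 met a pair of narrower peaks of replicate 1, at 23.6 and 23.9 kb and at 59.7 and 59.9 kb from the 5′ end. With each such pair joined, an alternative chosen after the data were seen, *Slc35f3* had 16 shared regions, 12.4 kb apart in the median.

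None of these regions lay at an annotated start of *Slc35f3*. The share of all shared regions at a start was not counted. The paper places only a small part of its common peaks in promoters, so the absence is not read as a trait of this gene. RefSeq promoters of the gene stand at 2 places, chr8:126138875-126139174 and, farther inside the gene, chr8:126298329-126298628. They are shown because the gene with the most regions of the family had none at either start. Capitals mark the first 50 bases transcribed from that start, after the 250 bases before it. The RefSeq extent begins earlier, at chr8:126138398, so both windows lie wholly inside it.
First start of Slc35f3: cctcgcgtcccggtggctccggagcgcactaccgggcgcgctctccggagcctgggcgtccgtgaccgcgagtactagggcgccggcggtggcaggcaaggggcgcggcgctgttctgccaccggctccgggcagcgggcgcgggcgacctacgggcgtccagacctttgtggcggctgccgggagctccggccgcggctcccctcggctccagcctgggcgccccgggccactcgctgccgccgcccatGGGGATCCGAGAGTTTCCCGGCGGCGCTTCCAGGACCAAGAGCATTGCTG
Internal start of Slc35f3: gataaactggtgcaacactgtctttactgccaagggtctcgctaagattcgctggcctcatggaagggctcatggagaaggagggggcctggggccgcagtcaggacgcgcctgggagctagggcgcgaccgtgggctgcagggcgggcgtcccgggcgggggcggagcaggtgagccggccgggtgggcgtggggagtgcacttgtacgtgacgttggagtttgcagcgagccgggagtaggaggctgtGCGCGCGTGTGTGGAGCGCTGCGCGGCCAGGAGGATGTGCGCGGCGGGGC
The nearest peak lay 5418 bp from the first of these windows in replicate 1 and 3259 bp from it in replicate 2. For the internal one, the nearest peaks lay 4661 bp away in replicate 1 and 4703 bp away in replicate 2. The windows were rich in G and C, at 76% and 69%, against a median of 52.7% over 32851 promoters.

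The region closest to a start of *Slc35f3* was at chr8:126303331-126303620, 4.90 kb beyond the internal start, at a fold of 5.56 in replicate 1 against 5.16 in replicate 2. The one closest to the first start lay upstream of the gene, at chr8:126132963-126133457, 5.92 kb away. It was also the longest of the 18, at 495 bp, and the second strongest, at a fold of 7.83 in replicate 1 against 6.77 in replicate 2. These folds rested on 13 fragments at the summit in replicate 1 and 19 in replicate 2, numbers inferred from the fold and the −log10 p that the peak caller gave. The region nearest the 3′ end, at chr8:126363112-126363324, had a fold of 5.45 in replicate 1 against 4.24 in replicate 2.

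The strongest region stood near the middle of the gene. At chr8:126260405-126260729, 122 kb from the 5′ end, the fold was 8.71 in replicate 1 and 6.85 in replicate 2, the highest of the gene in each library. Next to it, at chr8:126251152-126251416, the fold was 7.26 in replicate 1 and 6.33 in replicate 2. At chr8:126284760-126284937 it was 6.22 in replicate 1 and 5.84 in replicate 2, and this stretch also lies in the lncRNA gene *Gm31165*. Together with the upstream region and 1 at chr8:126198073-126198167, with folds of 6.38 and 5.39, these are the 5 with the highest lower fold. Of the 4 equal parts of the gene, the second had the highest median of the lower fold, at 6.33, and the last the lowest, at 4.24.

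By lower fold, the regions of *Slc35f3* stood close to the middle of all shared regions. The lower fold of the 18 had a median of 4.62, against 4.51 over all shared regions, and 11 of the 18 lay above that genome-wide median. The strongest region of *Slc35f3* ranked 796 of 10921 by lower fold, and the highest lower fold anywhere was 20.6. Fragments at the summit ran from 6 to 13 in replicate 1, with a median of 9, and from 9 to 19 in replicate 2, with a median of 14. Over all peaks, shared or not, the medians were 6 fragments in replicate 1 and 9 in replicate 2. Over all peaks of *Slc35f3*, shared or not, they were 9 in replicate 1 and 12 in replicate 2. Taken by library, the median fold of the 18 was 5.57 in replicate 1, above the 5.05 of all shared regions, and 4.74 in replicate 2, below their 5.12. Of the *Slc35f3* regions, 3 reached a lower fold of 6. The lowest of those 3, at 6.33, ranked 1222 of 10921, so such values were common elsewhere too. The weakest region of the gene, at chr8:126359068-126359255, stood at 6.08 in replicate 1 and 3.75 in replicate 2.

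**Figure D3:**
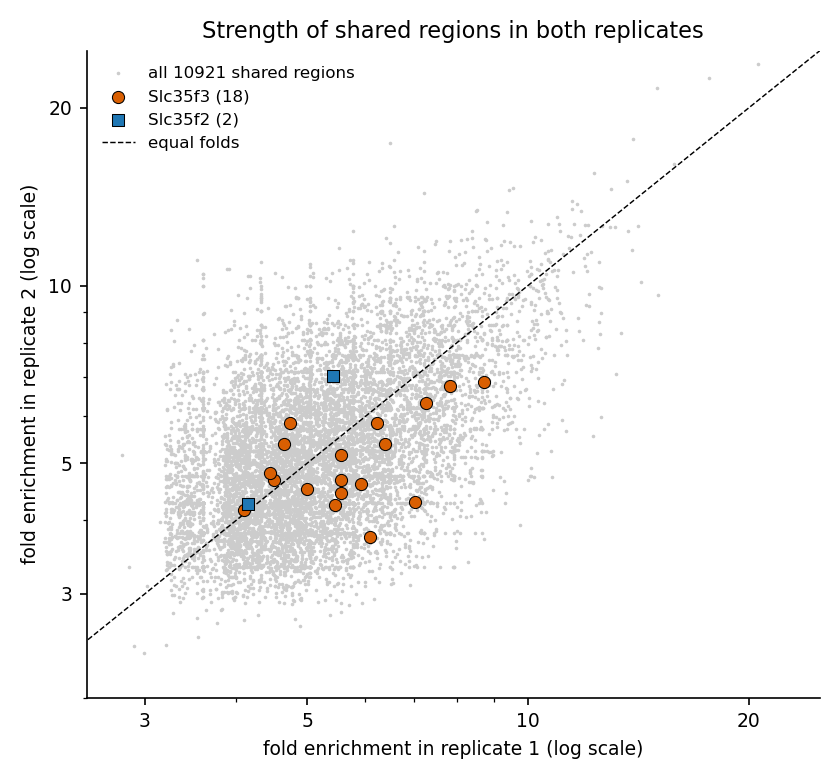
Each point is a shared region, with its fold enrichment in replicate 1 against that in replicate 2, both on log scales, and the dashed line marks equal folds. The 18 regions of *Slc35f3* sit inside the cloud of all 10921 shared regions, 13 of them below the line.

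Within these regions the summits of the replicates lay close together. The summits of the 2 libraries lay a median of 39.5 bp apart at *Slc35f3*, against 63.0 bp over all shared regions, and 17 of the 18 pairs were within 150 bp. Peaks had to overlap to form a region, which by itself limits how far apart the summits can lie. The share within 150 bp over all shared regions was not counted. The regions were 78 to 495 bp long, with a median of 200.5 bp against 151 bp over all. The fold was higher in replicate 1 at 13 of the 18 regions and higher in replicate 2 at 5, whereas over all shared regions replicate 1 was the higher in 50.4%. Across the 18 regions, the folds of the libraries had a Pearson's r of 0.606 and a Spearman's rho of 0.422, close to the rho of 0.440 over all shared regions. These values describe regions of 1 locus, which share both libraries and a neighbourhood and are not independent.

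Peaks at *Slc35f3* recurred more often than peaks in general, as the choice of the family implies. Of its 23 replicate 1 peaks, 18 met a replicate 2 peak, or 78.3% (95% Wilson interval 58.1 to 90.3%), beside 38.9% of all replicate 1 peaks. Of its 31 replicate 2 peaks, 16 did so in turn, or 51.6% (interval 34.8 to 68.0%), beside 17.2% of all replicate 2 peaks. The intervals cover counting error only. The 5 replicate 1 peaks left over had folds up to 4.33, which is the median of all replicate 1 peaks. Each had 5 fragments, against a median of 6 over all replicate 1 peaks. Of the 15 left over in replicate 2, the strongest was at chr8:126333931-126334217 inside the gene, with a fold of 6.40 and 16 fragments. The 4 relatives together had 3 replicate 1 peaks, 2 of them met, and 24 replicate 2 peaks, of which 2 were met, or 8.33% (interval 2.32 to 25.85%).

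Both shared regions of *Slc35f2* lay in the first part of that gene. The stronger, at chr9:53786231-53786445, was 14.9 kb from the 5′ end and had a fold of 5.42 in replicate 1 against 7.01 in replicate 2. The other, at chr9:53776960-53777037, 5.57 kb from the 5′ end, had a fold of 4.16 in replicate 1 against 4.27 in replicate 2. They were 9.34 kb apart, and their summits differed by 17 and 54 bp between the libraries. With 14 fragments in replicate 2, the stronger region equalled the median of the *Slc35f3* regions in that library, and in replicate 1 its 7 fragments were below their median.

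The relatives without a shared region differed in how their replicate 2 peaks were placed. *Slc35f1* had 3 of 4 inside the gene, with folds of 3.48, 3.81 and 4.28, all in its first 144 kb. *Slc35f4* had 1 peak in replicate 1, downstream of the gene at chr14:49265806-49266011, with a fold of 5.77 and 7 fragments. Its strongest peak in replicate 2 lay upstream, at chr14:49552250-49552381, with a fold of 6.66 and 13 fragments, and nothing was listed there in replicate 1. At *Slc35f5* the strongest was downstream, at chr1:125658679-125658995, with a fold of 6.44 and 13 fragments.

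Within 2 kb of an annotated start of a member there were 2 peaks, both in replicate 2 and neither met in replicate 1. The share of all peaks that close to a start was not counted. The one at *Slc35f4*, at chr14:49525086-49525231, lay 632 bp from the start with a fold of 4.76. The one at *Slc35f5*, at chr1:125560957-125561085, had its summit 10 bp from the second of 2 starts, with a fold of 3.33 on 6 fragments. It is the only peak of the family on a RefSeq promoter, and it covers 95 of the 300 bases of chr1:125560752-125561051, on the plus strand and shown here with those bases in capitals.
Second start of Slc35f5: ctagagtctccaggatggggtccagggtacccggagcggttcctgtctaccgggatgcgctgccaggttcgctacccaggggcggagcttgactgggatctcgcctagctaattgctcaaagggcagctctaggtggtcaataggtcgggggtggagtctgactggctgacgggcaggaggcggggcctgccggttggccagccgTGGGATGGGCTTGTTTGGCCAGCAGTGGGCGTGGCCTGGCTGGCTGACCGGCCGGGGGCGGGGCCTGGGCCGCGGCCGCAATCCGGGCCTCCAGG
At 6 fragments and in 1 library, this peak was among the weakest of the family.

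The 7 promoter windows of the members, of 300 bases each, were searched on both strands for short motifs. The homeodomain core TAATT was found in 1 of the 7, in the *Slc35f5* window above and outside the part under the peak, and in 27.0% of all 32851 windows. The E-box CACGTG, which MNT and MYC proteins recognise, was in 0 of the 7 and in 7.15% of all. The RUNX core TGTGGT was in 0 of the 7 and in 16.8% of all. A match says only that these letters are present, and the windows leave out the shared regions themselves, whose sequence was not analysed here.

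Other carriers were counted in the same way from a list drawn up for their relation to the members, whatever their peaks. It held 24 genes, namely 22 other Slc35 carriers, *Slc35f6* included, and the thiamine carriers *Slc19a2* and *Slc19a3*. Of these, 17 had a shared region inside or within 100 kb and 7 had none. The 17 make 70.8%, beside the 60.3% of all coding genes. The highest number was 4, at *Slc35b4*, a carrier of UDP sugars, and the median was 1. Only *Slc35g2* and *Slc35g3* held one inside the gene. The genes of the list are short, with a median extent of 13.7 kb and a maximum of 51.6 kb, so most of what lies in their windows is outside them. *Slc19a2* had 1 shared region and *Slc19a3* had 0, with 0 peaks in either library.

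Shared regions were also dense outside *Slc35f3*, on both sides. Inside the gene they came to 62.1 per Mb, against 5.69 per Mb on the whole of chromosome 8. The 100 kb upstream had 2 and the 100 kb downstream had 0, although replicate 2 listed 5 peaks there, and replicate 1 listed 1. Farther out, the next 400 kb upstream held 15 shared regions, or 37.5 per Mb, and the next 400 kb downstream held 10, or 25 per Mb. The nearest shared region beyond the window lay 103 kb upstream of the gene, with folds of 4.08 and 4.72, and the farthest upstream region inside it lay 56.6 kb before the first start, with folds of 5.92 and 4.6. Of these stretches the gene itself was the densest in shared regions, and the ones beyond both flanks were also above the chromosome's mean. By single libraries the gene stood out less. Replicate 2 peaks came to 85.4 per Mb in the gene, 67.5 beyond the upstream flank and 82.5 beyond the downstream flank. For replicate 1 the values were 73.8, 62.5 and 50. By contrast, the nearest shared region was 171 kb from *Slc35f2* beyond its window, 194 kb from *Slc35f5*, 272 kb from *Slc35f1* and 310 kb from *Slc35f4*.

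The local background, which is the number of fragments expected at a peak from the same library around it, was also raised there. At the *Slc35f3* peaks its median was 0.711 fragments in replicate 1 and 1.66 in replicate 2, against 0.484 and 1.29 over all peaks. It lay above that overall median for 19 of the 23 peaks in replicate 1 and for 27 of the 31 in replicate 2. At the peaks of the relatives the median was 0.444 in replicate 1, from 3 peaks, and 1.1 in replicate 2, which is the lowest value in that library. Fold is given relative to this background. What part a generally higher coverage of the locus has in the number of its regions was not tested.

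**Figure D4:**
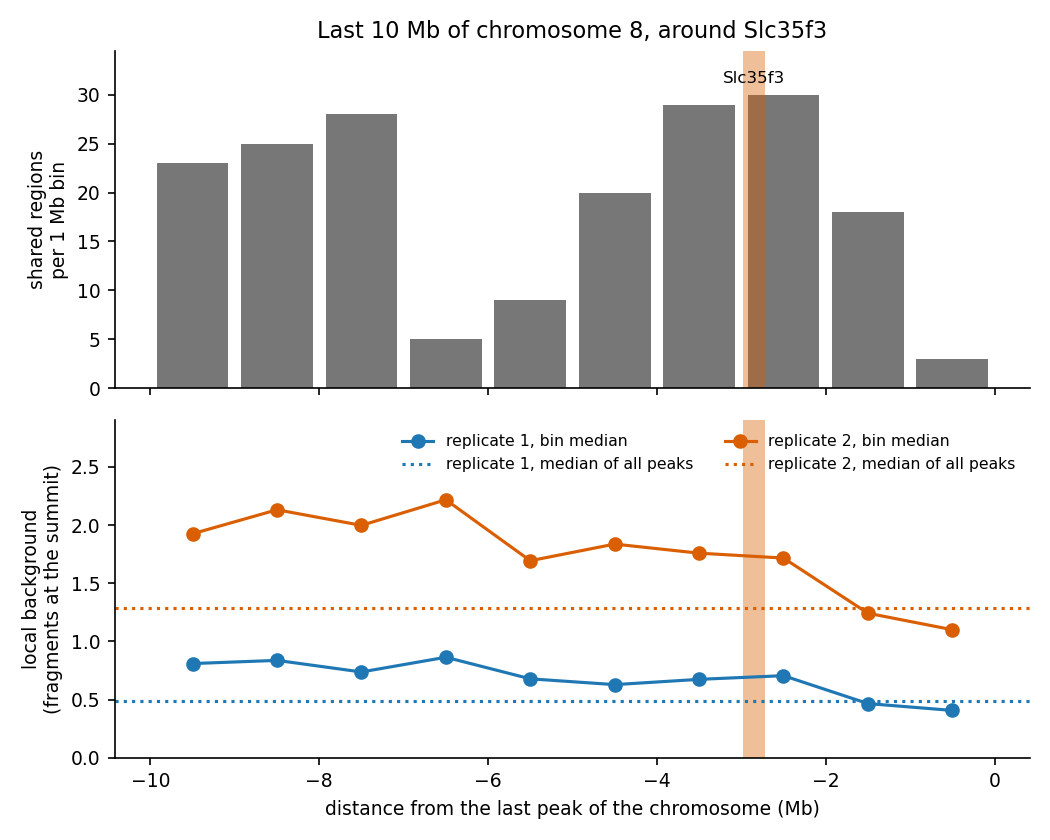
The upper panel gives the number of shared regions in each 1 Mb bin of the last 10 Mb of chromosome 8, and the lower panel the median local background of the peaks in the bin for each replicate, with dotted lines at the medians of all peaks; the orange band is *Slc35f3*. The bin that holds the gene has 30 shared regions and the one before it 29, and the background is above the dotted lines in the first 8 of the 10 bins.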

How the data were processed

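CUT&Tag peaks of 2 libraries of E12.5 wildtype maxillary process were used, numbered 1 and 2 in the order of their records. The submitters' processing notes name Trim Galore 0.4.5, Bowtie 1.1.2, MACS2 2.2.7 and mm10. The study's CUT&Tag methods name another version of Trim Galore, a different aligner, bowtie2, and no peak caller. Settings were not given in the sources used here. The labels describe sonicated chromatin, the methods transposase tagging. The authors deposited, for each library on its own, a score, a fold (a ratio of summit fragments to local background), −log10 p and −log10 q values and a summit position. Fragments were recovered from fold and −log10 p, assuming a Poisson tail and 1 added to both numbers, with a whole number for 100.0% of peaks within 0.001. The lowest background was 0.387 fragments in replicate 1 and 1.10 in replicate 2, so replicate 2 appears to be the deeper; read totals are unknown.

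Shared regions needed 1 bp in common, counted with Python 3.11.15, numpy 2.4.6, pandas 2.3.3 and scipy 1.17.1 and checked with bedtools 2.31.1 and on simulated data. RefSeq extents and promoters of GRCm38.p6 were used, without genes starting before 3000000 bp; distances were taken from the centre of a region to the 5′ end of the extent or to an annotated start. All 5 members and all 24 listed relatives matched by symbol. No test was run, since the members were chosen on these values and there was 1 group. The members and lists were chosen with earlier results of these data known. Regions named are the 5 of *Slc35f3* with the highest lower fold, those nearest its ends and the strongest of each relative; the strongest and weakest peaks otherwise named were picked after their values were seen. The genes most like *Slc35f3* were the 5 with the closest number of shared regions among coding genes of 206 to 322 kb. Figures were drawn with matplotlib 3.10.9.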

Additional observations from a re-analysis of the deposited data

How the results depend on the processing

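Of 73 alternatives to the main values, 41 stayed within 1.5 times the count, the Wilson interval or the spread between replicates. *Slc35f3* had the most regions of the family under each alternative. A −log10 q of at least 5 kept 6 replicate 1 peaks, 12 replicate 2 peaks and 4 shared regions, all of them at *Slc35f3*, with a spacing of 53.2 kb and a lower fold of 6.55. A fold of at least 5 left 14 and 13 peaks, met in 50% and 53.85% of cases, 6 shared regions at *Slc35f3* and 7 in the family, spaced 24.3 kb at a lower fold of 6.09. A −log10 p of at least 7 left 14 and 19 peaks, 8 and 9 shared regions, a share met of 47.4% in replicate 2, a spacing of 24.3 kb and a lower fold of 5.62. These follow from the filters, which remove weak peaks. Requiring 50% of each peak to be shared gave a share met of 57.7% in replicate 1 and a spacing of 16.9 kb. The gene extent alone held 31 replicate 2 peaks, 51.6% of them met. A flank of 200 kb held 41 replicate 1 peaks and gave a spacing of 12.55 kb. Joining regions under 1 kb apart, added after the data were seen, gave 12.4 kb. Using 1 replicate alone gave 23 to 31 regions at *Slc35f3*, 26 to 55 in the family, spacings of 9.315 to 11.58 kb and a fold of 4.53 to 5.45. Unshared peaks then enter the counts, and the fold is that of 1 library in place of the lower of 2. Without replicate 1 every relative had between 4 and 9. TAATTA in place of TAATT was found in 0 of the 7 promoters. For single relatives, 31 of 40 alternatives kept the count or stayed within 1.5 times it. No paired analysis was possible because there was 1 group.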

Other observations

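*Slc35f3* lies near the end of its chromosome, and so do 4 of the 5 genes closest to it in number of shared regions. The stretches compared here were chosen after the data were seen. Its 3′ end was 2.72 Mb from the last peak listed on chromosome 8, which stood in for the chromosome's end. The distance was 2.52 Mb for *Erg*, 3.11 Mb for *Kcnj6*, 3.85 Mb for *Disc1* and 4 Mb for *Ablim1*, and 38.8 Mb for *Myo18b*. These genes are not separate cases. *Disc1*, at chr8:125048767-125265143, lies in the same part of chromosome 8 as *Slc35f3*. *Kcnj6*, at chr16:94744980-94997696, and *Erg*, at chr16:95359169-95586600, are neighbours on chromosome 16. The 4 relatives of *Slc35f3* lay 69.8 to 77.5 Mb from the last peak of theirs.

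Over the 19 autosomes, the last 5 Mb held 10.4 shared regions per Mb against 4.26 in the rest. On chromosome 8 the values were 20 and 5.10. The dense stretch there was not confined to the last 5 Mb. From 10 Mb before the last peak, successive 1 Mb bins of that rest held 23, 25, 28, 5 and 9 shared regions. The very last bin of the chromosome held 3. Replicate 1 had 21.2 peaks per Mb in the last 5 Mb of the autosomes against 11.2 in the rest, and replicate 2 had 43.8 against 24.7. Of the 1109 coding genes in those last stretches, 18 had 10 or more shared regions, or 1.62%, against 0.308% of the 19451 coding genes elsewhere on the autosomes. *Slc35f3*, *Erg*, *Kcnj6*, *Disc1* and *Ablim1*, which led to this comparison, lie in those stretches and had 10 or more themselves. Neighbouring genes can also count the same regions, because their windows overlap. The regions of the named genes also count in the densities above, those of *Slc35f3* and *Disc1* in the value for chromosome 8. The densities and the shares are therefore a description and no independent support. Gene density, base composition and mappability along the chromosomes were not tested.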
